A study of Mus musculus with 28 samples.

Results

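The genes described here encode 7 subunits of the GABA-A receptor, *Gabra2*, *Gabra3*, *Gabra4*, *Gabra5*, *Gabrb1*, *Gabrb2* and *Gabrd*, in RNA-seq counts from mouse amygdala. They were chosen by symbol (GENCODE release M21), and all 7 are among the 16266 genes that passed the filter of a mean of at least 10 counts over 28 mice. Of 12 other GABA-A subunit genes looked up, 7 passed that filter. The mice were adult C57BL6/J females, individually housed under a 2-bottle choice for a month, and each library came from bilateral micropunches aimed at the basolateral and central amygdala of 1 mouse. The Water Drinking group (n = 10) had no access to alcohol, the Acute Drinking group (n = 9) had a single access to 20% alcohol, and the Chronic Drinking group (n = 9) had access to 20% alcohol every other day. Animals and libraries came in 2 batches, with 4 Water, 4 Acute and 3 Chronic mice in the first and 6 Water, 5 Acute and 6 Chronic mice in the second. The labels and methods name no transgene or deleted gene, and by them the groups differed in drinking only. All levels below are those of this strain.

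GABA-A receptors are chloride channels that open when GABA binds, and they carry most fast inhibition in the brain. Each channel is built from several subunits, usually alpha and beta subunits together with a gamma or a delta subunit, and the alpha subunit largely sets where the receptor sits and which drugs act on it. Receptors with a gamma subunit gather mostly at synapses, whereas those with the delta subunit lie outside synapses and carry a tonic current, and GABA-A receptors of the amygdala have long been studied for their part in anxiety and in the actions of alcohol.

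Total counts over the genes of both tables ranged from 19597940 to 22533377 per mouse. At this depth the lowest raw count of any of the 7 subunits was 345 (*Gabrd*), and the largest counting error of a single value was 5.38% (*Gabrd*), against 2.76% or less for the other 6. The 9 listed markers of the adjacent striatum were all detected. Their summed level spanned 483 to 1826 CPM under Water, 648 to 1467 CPM under Acute and 592 to 1231 CPM under Chronic Drinking. All 5 listed central amygdala markers were detected as well, with mean counts from 142 (*Crh*) to 819 (*Prkcd*), and so were all 8 pallial excitatory markers, among them *Slc17a7* (mean count 26592), the vesicular glutamate transporter of such neurons.

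*Gabra2*, *Gabra4* and *Gabrb1* lie close together on chromosome 5 (GRCm38), *Gabra2* at chr5:70957597-71095849 on the minus strand, *Gabra4* at chr5:71569749-71658308 on the minus strand and *Gabrb1* at chr5:71658113-72149037 on the plus strand. *Gabra3* lies on chromosome X (chrX:72432681-72656848, minus strand), *Gabra5* on chromosome 7 (chr7:57407672-57510059, minus strand), *Gabrb2* on chromosome 11 (chr11:42419757-42629028, plus strand) and *Gabrd* on chromosome 4 (chr4:155384980-155398112, minus strand). *Gabra4* and *Gabrb1* start head to head and their exons share 46 bases on opposite strands, which is 0.756% of the exon bases of *Gabra4* and 0.332% of those of *Gabrb1*. *Gabra5* shares 148 exon bases (4.98%) with the antisense gene *Gm9962*. Reads of such stretches cannot be told apart without strand.

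RefSeq promoter windows (GRCm38.p6, 250 bases before to 50 bases after a start site) were given for 6 of the 7 genes, all but *Gabrd*. The windows of *Gabra4* (chr5:71658259-71658558, minus strand) and *Gabrb1* (chr5:71657671-71657970, plus strand) are shown because the closest listed start sites of these neighbours lie 387 bases apart. Those of *Gabra3* (chrX:72656870-72657169, minus strand) and *Gabra5* (chr7:57510010-57510309, minus strand) are shown because their counts moved together most across mice, as described further on. Capitals mark the letters of a GC box (GGGCGG) or a TATA box (TATAAA) on either strand.
Gabra4: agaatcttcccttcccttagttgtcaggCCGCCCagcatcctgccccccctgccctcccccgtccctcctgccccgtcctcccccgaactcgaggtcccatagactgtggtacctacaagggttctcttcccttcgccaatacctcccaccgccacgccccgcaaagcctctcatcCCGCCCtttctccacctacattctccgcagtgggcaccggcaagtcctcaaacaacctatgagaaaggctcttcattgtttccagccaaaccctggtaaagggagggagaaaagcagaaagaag
Gabrb1: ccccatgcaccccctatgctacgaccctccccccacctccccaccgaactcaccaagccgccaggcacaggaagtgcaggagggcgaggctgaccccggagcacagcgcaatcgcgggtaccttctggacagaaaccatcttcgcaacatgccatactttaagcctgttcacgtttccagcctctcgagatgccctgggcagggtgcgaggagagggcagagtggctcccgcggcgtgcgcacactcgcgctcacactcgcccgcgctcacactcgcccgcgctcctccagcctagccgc
Gabra3: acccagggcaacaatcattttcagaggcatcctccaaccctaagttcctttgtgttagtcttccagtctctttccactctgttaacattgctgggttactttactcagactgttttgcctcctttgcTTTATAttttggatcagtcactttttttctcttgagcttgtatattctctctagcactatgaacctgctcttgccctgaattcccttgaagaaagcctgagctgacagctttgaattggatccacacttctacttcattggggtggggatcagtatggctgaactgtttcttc
Gabra5: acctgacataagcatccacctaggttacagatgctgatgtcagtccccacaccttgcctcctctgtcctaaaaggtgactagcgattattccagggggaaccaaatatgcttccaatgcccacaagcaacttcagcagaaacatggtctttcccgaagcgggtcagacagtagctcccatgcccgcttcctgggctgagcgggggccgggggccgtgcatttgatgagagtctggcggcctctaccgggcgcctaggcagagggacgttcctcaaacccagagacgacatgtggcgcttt
The *Gabra4* window held 2 GC boxes, both read from the opposite strand, a motif present in 35.6% of all 32817 windows of this length. The *Gabra3* window held 1 TATA box letter run, also on the opposite strand, present in 13.6% of all windows. The *Gabrb1* and *Gabra5* windows held neither, and none of the 4 windows held a CRE (TGACGTCA, in 1.79% of all windows), its core TGACG (20.8%), an E-box (CACGTG, 7.15%) or the EGR letters GCGTGGGCG (0.612%). The core TGACG lies within the CRE. The 4 windows differed more in composition. *Gabra3* had no CpG in this window nor in its other one, as did 5.43% of all windows, and its GC content was 43%. *Gabrb1* had 25 CpG and a GC content of 66%, *Gabra4* had 12 CpG and 58.7%, and *Gabra5* had 13 CpG and 56.7%, against a median GC content of 52.7% over all windows. A further *Gabrb1* window, not shown (chr5:71699682-71699981, plus strand), had 9 CpG and a GC content of 50.3%.

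In the Water mice the 7 subunits differed 5.94-fold in level, with *Gabra3* the highest and *Gabrd* the lowest. Levels were compared as TMM-normalized counts (counts scaled by edgeR's normalized library sizes) per kb of exon. The level of *Gabra3* was 1160 ± 97.7 per kb (SD, n = 10), that of *Gabra5* 565 ± 63.3, that of *Gabra4* 377 ± 27.7 and that of *Gabra2* 338 ± 31.4. The beta subunits stood at 349 ± 28.5 (*Gabrb1*) and 301 ± 32.7 (*Gabrb2*), and *Gabrd* stood at 195 ± 53.8.

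**Figure D1:**
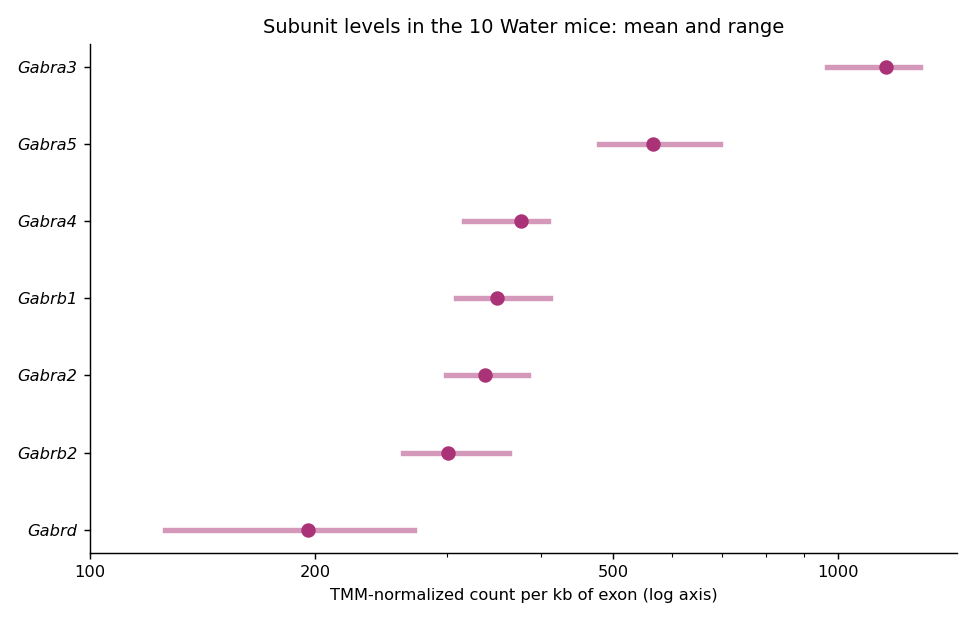
Levels of the 7 GABA-A subunit genes in the 10 Water mice, as TMM-normalized counts per kb of exon on a log axis. Points are means and bars run from the lowest to the highest mouse. *Gabra3* (mean 1160) is the highest and *Gabrd* (mean 195) the lowest.

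Per kb of exon, *Gabra3* was above *Gabra5* in 10 of 10 Water mice, by 2.05-fold, and *Gabra5* was above *Gabra4* in 10 of 10, by 1.5-fold, and in neither pair did the ranges overlap. The next levels could not be told apart by their ranges. *Gabra4* exceeded *Gabrb1* in 8 of 10 mice, *Gabrb1* exceeded *Gabra2* in 6 of 10 and *Gabra2* exceeded *Gabrb2* in 9 of 10. *Gabrb2* was above *Gabrd* in 10 of 10 mice although their ranges touched, since *Gabrd* reached from 126 to 271 per kb. Against all genes kept, the level of *Gabra3* stood at the 95.8th percentile and that of *Gabrd* at the 71.3rd.

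The order below *Gabra3* rests on the length each gene is given. With the longest transcript in place of all exons *Gabra3* stayed 1.98-fold above *Gabra5*, whereas the order of the others became *Gabra5*, *Gabra4*, *Gabrb2*, *Gabra2*, *Gabrb1* and *Gabrd*. *Gabra5* was then 1.13-fold above *Gabra4*, in 8 of 10 mice, and their ranges overlapped. Without a division by length *Gabra4* stood above *Gabra5*. *Gabrb1* has the longest exon length, 13838 bases, and was the most counted of the 7 without a division by length (4836 ± 395 TMM-normalized counts, SD, n = 10).

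No subunit of the 7 was called in the Acute Drinking group, where the quasi-likelihood test of edgeR, fitted with batch, called 0% of the genes tested at an adjusted p under 0.05. DESeq2, limma-voom and ComBat-seq followed by DESeq2 called none of the 7 either, and the shares of all genes that they called are not given here. At an unadjusted p under 0.05 there was 1 of 7, *Gabrb2*, which was lower, against 9.52% of all genes (4.45% lower and 5.07% higher). The log2 fold changes of the other 6 lay between -0.072 (*Gabrb1*) and 0.013 (*Gabra3*). The median over the 7 was -0.018, with 6 of 7 below 0, against a median of 0.0011 and 49.4% below 0 over all genes tested.

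**Figure D2:**
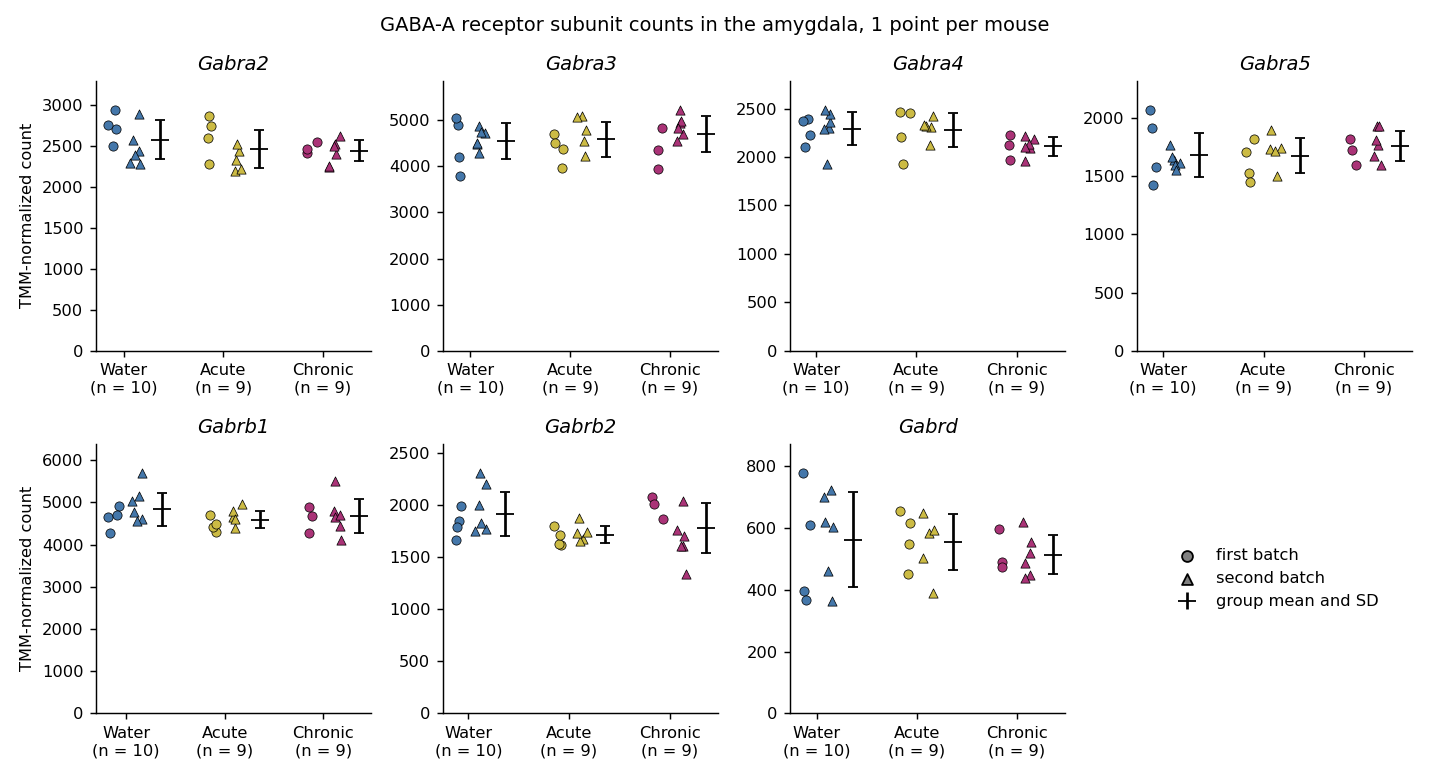
TMM-normalized counts of the 7 subunits in each mouse, by drinking group and batch (circles first, triangles second), with the mean and SD of each group beside the points. All axes start at 0. The groups overlap for every subunit, and the Acute points of *Gabrb2* (1612 to 1872) and the Chronic points of *Gabra4* (1957 to 2224) sit low against the Water points.

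No subunit was called in the Chronic Drinking group either, where 0.0184% of the genes tested (3 of 16266) passed. At an unadjusted p under 0.05 there was again 1 of 7, here *Gabra4*, which was lower, against 10.5% of all genes (5.65% lower and 4.81% higher). The median log2 fold change of the 7 was -0.069, with 5 of 7 below 0, against 0.0022 and 49% over all genes. Both comparisons use the same Water mice. Chronic against Acute mice called 0 of 7 (0% of all genes), with 1 of 7, again *Gabra4* and again lower, at an unadjusted p under 0.05, against 4.44% of all genes (2.5% lower and 1.95% higher). The median of the 7 was 0.018 there. Among the 3 comparisons the lowest adjusted p of any of the 7 was 0.337. In bulk tissue, fewer cells of a type and less RNA per cell cannot be told apart, so each value below is a level of the whole punch.

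**Figure D3:**
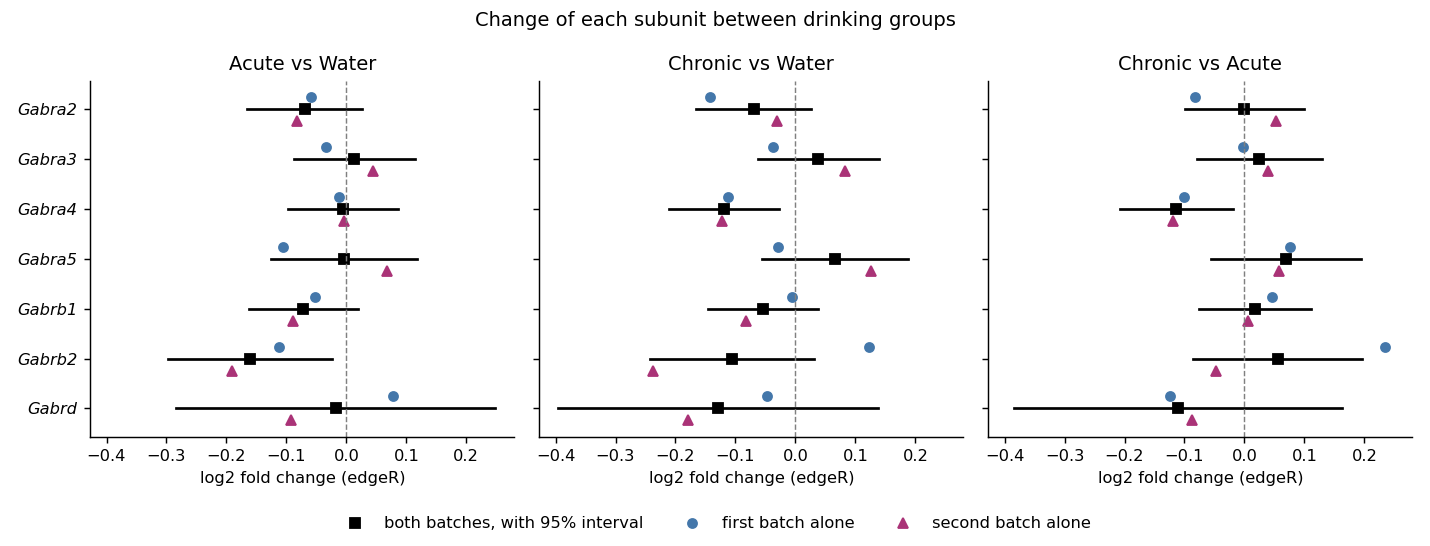
Log2 fold changes of the 7 subunits from edgeR in the 3 comparisons. Squares with 95% intervals are fits over both batches, circles the first batch alone and triangles the second batch alone. The interval leaves out 0 for *Gabrb2* in Acute against Water (-0.30 to -0.024) and for *Gabra4* in both comparisons of Chronic mice (-0.21 to -0.027 against Water), and *Gabrb2* in Chronic against Water is on opposite sides of 0 in the 2 batches.

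*Gabra4*, whose subunit often pairs with delta in receptors outside synapses, was lower in Chronic mice before adjustment. It spanned 1925 to 2486 TMM-normalized counts under Water (median 2335), 1929 to 2463 under Acute (median 2316) and 1957 to 2224 under Chronic Drinking (median 2129). The highest Chronic mouse was thus below the Water median, while the lowest Water and Acute mice were below every Chronic mouse. The log2 fold change against Water was -0.12 ± 0.045 (SE), a 0.921-fold level, and 9 of 9 Chronic mice were below the Water mean with batch removed (edgeR, p = 0.0128, adjusted p = 0.337). Against Acute it was -0.11 ± 0.046, with 9 of 9 mice below the Acute mean (edgeR, p = 0.02, adjusted p = 0.998). Acute against Water gave -0.0056 ± 0.045, with a 95% interval from -0.097 to 0.086.

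The 2 batches gave *Gabra4* like values in Chronic mice, -0.11 in the first and -0.12 in the second, with 3 and 6 Chronic mice. The difference between them was -0.011 ± 0.096 (edgeR interaction, p = 0.906, adjusted p = 0.991). With the offsets for GC content and length, fitted to each mouse's trend, the change against Water was -0.077 (p = 0.0936, adjusted p = 0.771, edgeR). Without Chronic mouse 38, the lowest of the 3 Chronic mice of the first batch, the change against Acute was -0.097 (p = 0.0527, adjusted p = 0.947, edgeR).

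*Gabra2*, the alpha subunit that human genetics has most often tied to alcohol dependence, spanned 2282 to 2943 TMM-normalized counts under Water (median 2538), 2199 to 2871 under Acute (median 2446) and 2247 to 2628 under Chronic Drinking (median 2464). The 3 ranges overlapped, and the log2 fold changes were -0.069 ± 0.047 (SE) in both groups against Water (edgeR, adjusted p = 0.646 in Acute and 0.628 in Chronic mice). The 95% intervals (-0.16 to 0.026 in Acute, -0.17 to 0.026 in Chronic mice) include 0. With offsets for each mouse's trend on GC content and length the values were -0.026 in Acute and -0.012 in Chronic mice. Within the batches the Chronic value was -0.14 (first) and -0.031 (second) and the Acute value -0.060 and -0.083. Without Water mouse 4 the values became -0.042 in Chronic and -0.044 in Acute mice.

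*Gabra3* spanned 3786 to 5043 TMM-normalized counts under Water (median 4608), 3957 to 5096 under Acute (median 4559) and 3935 to 5225 under Chronic Drinking (median 4825). The groups overlapped over nearly their whole ranges, and the log2 fold changes were 0.013 ± 0.049 in Acute (95% interval -0.087 to 0.11) and 0.038 ± 0.049 in Chronic mice (-0.062 to 0.14). With 1 mouse left out the Chronic value ranged from 0.018 to 0.065. *Gabra5*, whose subunit is best known from hippocampal receptors outside synapses, spanned 1424 to 2069 under Water (median 1624), 1448 to 1893 under Acute (median 1717) and 1596 to 1934 under Chronic Drinking (median 1764). Its log2 fold changes were -0.0041 ± 0.059 in Acute (-0.13 to 0.12) and 0.066 ± 0.059 in Chronic mice (-0.056 to 0.19). In the second batch alone the Chronic value of *Gabra5* was 0.13 (p = 0.0339, adjusted p = 0.332, edgeR), and in the first alone it was -0.029. The difference between the batches, 0.15 ± 0.12, did not pass (edgeR interaction, adjusted p = 0.866).

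*Gabrb2*, a beta subunit found widely in adult brain, was lower in Acute mice before adjustment. It spanned 1664 to 2312 TMM-normalized counts under Water (median 1836), 1612 to 1872 under Acute (median 1713) and 1338 to 2076 under Chronic Drinking (median 1758). The Acute mice were packed into the lower part of the Water range and just below it, and the Chronic mice were spread widely, with the lowest value of all 28 mice among them. In Acute mice the log2 fold change was -0.16 ± 0.067 (SE), a 0.894-fold level, and 9 of 9 mice were below the Water mean with batch removed (edgeR, p = 0.0226, adjusted p = 0.477). Within the batches it was -0.11 (first) and -0.19 (second).

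The unadjusted p, but not the direction, of this Acute value depended on either of the 2 highest Water mice. Without Water mouse 4 of the second batch, which held 2312 TMM-normalized counts, it was -0.13 (p = 0.0574, adjusted p = 0.731), and without Water mouse 6, which held 2203, it was -0.14 (p = 0.0508, adjusted p = 0.586, both edgeR).

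In Chronic mice *Gabrb2* went opposite ways in the 2 batches. In the first, the 3 Chronic mice held from 1866 to 2076 TMM-normalized counts against 1664 to 1988 in the 4 Water mice, a log2 fold change of 0.12 ± 0.066. In the second, the 6 Chronic mice held from 1338 to 2036 against 1756 to 2312 in the 6 Water mice, a log2 fold change of -0.24 ± 0.082. The difference between the batches was -0.36 ± 0.12 (edgeR interaction, p = 0.00706, adjusted p = 0.752). It did not pass the adjustment, under which 0.00615% of all genes were called. At an unadjusted p under 0.05 it was 1 of 7 subunits against 6.15% of all genes (3.03% lower and 3.12% higher in the second batch). For Acute against Water it was 0 of 7 against 4.13% of all genes (2.02% lower and 2.1% higher). Over both batches the Chronic value was -0.11 ± 0.067 (edgeR, adjusted p = 0.597), an average of 2 values of opposite sign, and -0.067 with the offsets for GC content and length. It ranged from -0.14 to -0.062 with 1 mouse left out. Against Acute mice it was 0.23 ± 0.066 in the first batch alone (edgeR, p = 0.00393, adjusted p = 0.956), -0.048 ± 0.086 in the second alone and 0.055 ± 0.069 over both. The offsets also moved *Gabra3* in Chronic mice from 0.038 to 0.065 and *Gabrd* in Acute mice from -0.018 to -0.047.

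*Gabrb1* spanned 4271 to 5702 TMM-normalized counts under Water (median 4729), 4298 to 4966 under Acute (median 4607) and 4119 to 5495 under Chronic Drinking (median 4687). All but 1 of 9 Acute mice and all but 2 of 9 Chronic mice were below the Water mean with batch removed. The log2 fold changes were small, -0.072 ± 0.045 in Acute (95% interval -0.16 to 0.019) and -0.054 ± 0.045 in Chronic mice (-0.15 to 0.037), and with the offsets for GC content and length they were -0.010 and 0.017.

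*Gabrd*, the subunit that marks receptors outside synapses, had the lowest and most variable counts. It spanned 362 to 779 TMM-normalized counts under Water (median 605), 389 to 655 under Acute (median 583) and 437 to 620 under Chronic Drinking (median 490). The Acute and Chronic ranges both lay inside the Water range. The log2 fold changes were -0.018 ± 0.13 in Acute (95% interval -0.28 to 0.25) and -0.13 ± 0.13 in Chronic mice (-0.40 to 0.14; edgeR, adjusted p = 0.766), so that these intervals are the widest of the 7. The Chronic value was -0.047 within the first batch and -0.18 within the second, and ranged from -0.19 without Water mouse 5 to -0.060 without Water mouse 40.

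Apart from group and batch, the spread of *Gabrd* between mice was an SD of 0.32 on the log2 scale, at the 96.8th percentile of the 11722 genes whose mean count reached 100. The highest mouse (Water mouse 40, first batch) held 2.15 times the TMM-normalized count of the lowest (Water mouse 5, second batch). The other 6 subunits had SDs from 0.10 (*Gabrb1*) to 0.14 (*Gabrb2*), from the 46.4th to the 69.2nd percentile, and the highest mouse exceeded the lowest by 1.29 (*Gabra4*) to 1.73 times (*Gabrb2*).

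The 7 subunits did not vary as 1 block across mice. Of their 21 pairs, 4 had a Pearson r with an adjusted p under 0.05 and 1 of these also passed on Spearman's rho, over 28 mice with batch and group means removed (100000 permutations within batch and group). *Gabra3* and *Gabra5* moved together most, with r = 0.71 and rho = 0.70 (permutation, adjusted p = 0.0286 and 0.0353), and r was 0.66 without the 2 mice farthest from the median of *Gabra3*, and 0.80 and 0.52 within the batches. *Gabra4* and *Gabrd* had r = 0.62 and rho = 0.55 (permutation, adjusted p = 0.0286 and 0.078), with r = 0.46 without the 2 farthest mice, and 0.68 and 0.56 within the batches.

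**Figure D4:**
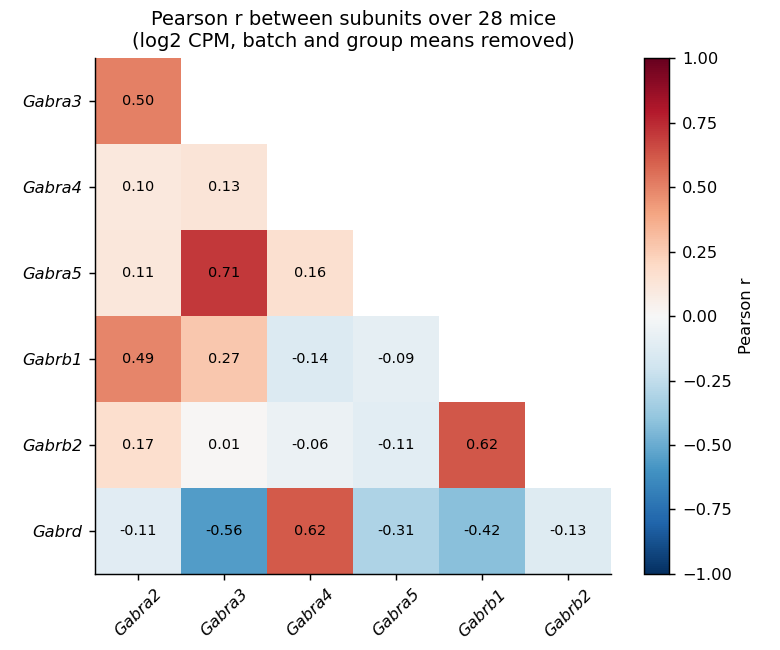
Pearson r of log2 CPM between each pair of the 7 subunits over 28 mice, with batch and group means removed, from blue (-1) to red (1). The strongest value is that of *Gabra3* with *Gabra5* (0.71), and *Gabrd* is positive with *Gabra4* (0.62) and negative with *Gabra3* (-0.56).

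The beta subunits *Gabrb1* and *Gabrb2* had r = 0.62 and rho = 0.52 (permutation, adjusted p = 0.0446 and 0.0829), and this value differed by batch, 0.13 in the first and 0.73 in the second, and was 0.38 without the 2 farthest mice. *Gabra2* and *Gabra3* had r = 0.50 and rho = 0.45 (permutation, adjusted p = 0.0427 and 0.1), with r = 0.43 without the 2 farthest mice, and 0.71 and 0.33 within the batches. *Gabra3* and *Gabrd* ran opposite to each other, with r = -0.56 and rho = -0.55, without passing (permutation, adjusted p = 0.0556 and 0.0829). The neighbours *Gabra4* and *Gabrb1*, whose closest listed start sites lie 387 bases apart, had r = -0.14 and rho = -0.19 (permutation, adjusted p = 0.749 and 0.673).

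*Gabrd* followed the striatal markers from mouse to mouse. Its correlation with the score of 9 markers of the striatum (*Drd1*, *Drd2*, *Adora2a* and others, as mean log2 CPM) was r = 0.90 and rho = 0.89 (permutation, adjusted p = 0.000327 and 0.00049 over 98 relations of subunits with marker lists), with r = 0.87 without the 2 farthest mice, and 0.89 and 0.93 within the batches. *Gabra3* ran the other way, with r = -0.75 and rho = -0.75 (permutation, adjusted p = 0.00549 for both), and r = -0.64 without the 2 farthest mice. With the 14 marker lists, 12 of the 98 values of r and 11 of those of rho passed, and 9 relations passed on both. The 2 that passed on rho alone were *Gabrd* with the GABAergic interneuron markers, r = 0.53 and rho = 0.60 (permutation, adjusted p = 0.0795 and 0.0369), and *Gabrb1* with the markers of oligodendrocyte precursors, r = 0.50 and rho = 0.60 (permutation, adjusted p = 0.0687 and 0.0247).

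**Figure D5:**
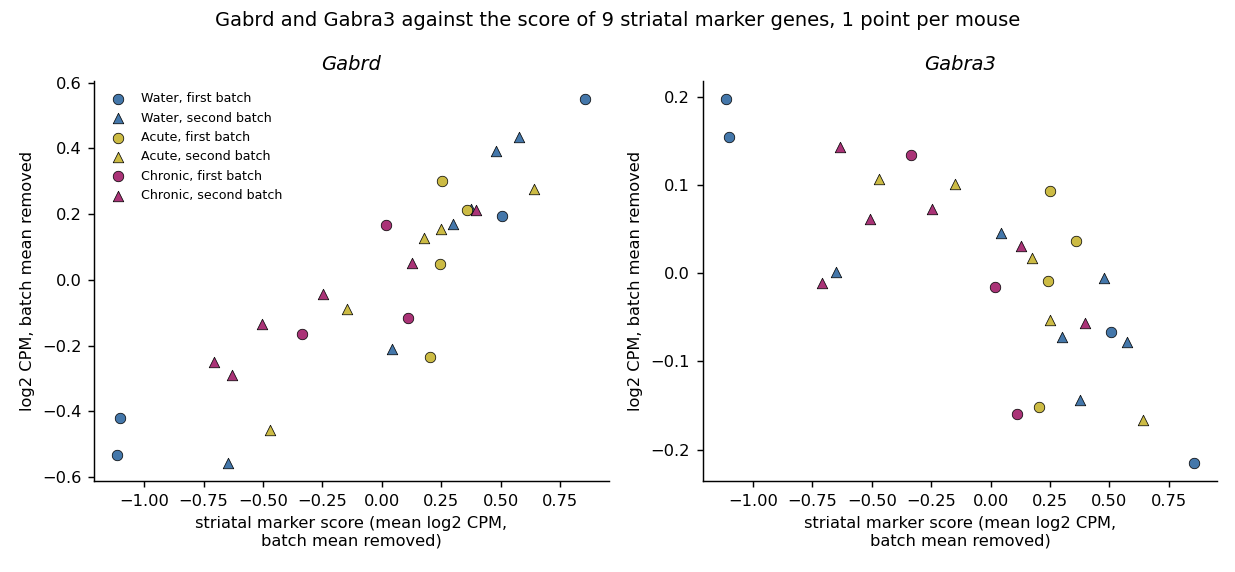
Log2 CPM of *Gabrd* (left) and *Gabra3* (right) against the striatal marker score, both with batch means removed, with 1 point per mouse, colors for drinking groups and shapes for batches. *Gabrd* rises with the score (r = 0.90 with group means removed too) and *Gabra3* falls with it (r = -0.75).

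The striatal score itself did not pass between groups, with differences in mean log2 CPM of 0.15 in Acute and -0.23 in Chronic mice against Water (exact permutation within batches, 2-sided, adjusted p = 0.862 for both) and of -0.34 between Chronic and Acute (exact p = 0.055, adjusted p = 0.77 over 42 comparisons). With this score as a covariate, chosen after seeing the data, the Chronic value of *Gabrd* against Water was 0.029 in place of -0.13, that of *Gabra3* 0.0044 in place of 0.038 and that of *Gabra5* 0.031 in place of 0.066. The Chronic value of *Gabra4* was -0.10 (edgeR, p = 0.0261, adjusted p = 0.392), and that of *Gabra4* against Acute was -0.085 (p = 0.0676). The Acute value of *Gabrb2* stayed at -0.16, while those of *Gabra3* and *Gabrd* were 0.039 in place of 0.013 and -0.060 in place of -0.018. The part of the striatal score in these values was not tested further.

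*Gabra3* and *Gabra5*, the pair that moved together, both rose with the 8 pallial excitatory markers (*Slc17a7*, *Neurod6*, *Tbr1* and others), with r = 0.72 and 0.69 and rho = 0.64 and 0.60 (permutation, adjusted p = 0.00857 and 0.00621 for r, 0.0233 and 0.0242 for rho). Both also rose with the 10 markers of neurons in general, with r = 0.71 and 0.63 and rho = 0.73 and 0.76 (permutation, adjusted p = 0.00857 and 0.0278 for r, 0.00938 and 0.00294 for rho), though for *Gabra3* r was 0.91 in one batch (the first) and 0.22 in the other. *Gabra3* fell with the oligodendrocyte markers, r = -0.81 and rho = -0.79 (permutation, adjusted p = 0.000327 and 0.00163), and with the endothelial markers, r = -0.75 and rho = -0.71 (permutation, adjusted p = 0.00549 and 0.00735). *Gabrd* also rose with the 10 microglial markers, r = 0.75 and rho = 0.84 (permutation, adjusted p = 0.000327 and 0.00049). *Gabra4* passed on r but not on rho with the 10 astrocyte markers, r = -0.68 and rho = -0.47 (permutation, adjusted p = 0.0264 and 0.124), with r = -0.73 and -0.63 within the batches, and with the microglial markers, r = 0.53 and rho = 0.46 (permutation, adjusted p = 0.0444 and 0.108). The astrocyte score differed by 0.046 and the microglial score by -0.020 between Chronic and Water mice (exact permutation, adjusted p = 0.862 for both), and their part in the Chronic value of *Gabra4* was not tested. *Gabra2* passed on r alone with the oligodendrocyte markers, r = -0.60 and rho = -0.55 (permutation, adjusted p = 0.028 and 0.0629). None of the 42 differences of a marker score between groups passed. Whether a share of cells or a level per cell moved with these scores was not tested.

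The genes most like each subunit across the 28 mice, by Pearson r over all genes with batch and group means removed, are given as a description, since all genes share the libraries and their makeup. For *Gabrd* they were *Pde1b* (r = 0.96), *Arpp21* (0.95) and *Sh3rf2* (0.93), and for *Gabra4* they were *Npsr1* (0.84), *Kcnj4* (0.82) and *Rasgrp1* (0.81). For *Gabra3* they were *Amph* (0.94), *St6galnac5* (0.94) and *Atp6v1a* (0.93), for *Gabra5* *Syt16* (0.85), *Fam131a* (0.85) and *Osbpl10* (0.82), and for *Gabra2* *Epha4* (0.83), *Npy1r* (0.77) and *Ccnd1* (0.75). For *Gabrb1* they were *Usp34* (0.88), *Map2* (0.87) and *Usp9x* (0.86), and for *Gabrb2* *Spag9* (0.90), *Rb1cc1* (0.88) and *Gucy1a2* (0.84). No gene appears for 2 subunits, and no listed subunit gene is among them.

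The rest of the GABA system was looked at in 5 fixed lists, and no gene of these lists was called in any comparison. The counts at an unadjusted p under 0.05 stand against 9.52% of all genes in Acute mice (5.07% higher, 4.45% lower) and 10.5% in Chronic mice (4.81% higher, 5.65% lower). Of the 7 other GABA-A subunits tested, 0 in Acute and 1 in Chronic mice, which was lower, had such a p. The median of this list was 0.13 in Acute and 0.032 in Chronic mice, with 6 and 5 of 7 above 0, where 49.4% and 49% of all genes were below 0.

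Of 17 genes for receptor assembly and clustering, 1 in Acute and 2 in Chronic mice had an unadjusted p under 0.05, all higher. They were *Gabarapl2* in Acute mice (0.071 ± 0.032, adjusted p = 0.501, followed by *Gabarap* at 0.073 ± 0.036), and *Gabarap*, which binds the gamma subunit in transit to the membrane (0.089 ± 0.036, adjusted p = 0.366), and *Hap1*, which helps return receptors to the surface (0.15 ± 0.069, adjusted p = 0.433), in Chronic mice (all edgeR). *Gabarap* and *Hap1* were above the Water mean, with batch removed, in 9 of 9 Chronic mice.

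Of 8 genes for GABA synthesis, transport and breakdown, 8 had a positive log2 fold change in Acute and 6 in Chronic mice, and 2 and 1 had an unadjusted p under 0.05, all higher. *Gad1*, which makes GABA from glutamate, had 0.18 ± 0.075 in Acute (edgeR, p = 0.0254, adjusted p = 0.485) and 0.022 ± 0.075 in Chronic mice. The GABAergic interneuron marker score differed by 0.073 between Acute and Water mice, higher under Acute, without passing (exact permutation, p = 0.0457, adjusted p = 0.77). The central amygdala marker score was also higher under Acute, by 0.23 (exact permutation, p = 0.0331, adjusted p = 0.77). The part of either score in the Acute values of *Gad1* and the rest of this list was not tested.

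Of 6 genes of the GABA-B receptor, 2 in Acute and 1 in Chronic mice had an unadjusted p under 0.05. *Kctd16*, an auxiliary subunit, had -0.28 ± 0.10 in Acute and -0.22 ± 0.10 in Chronic mice (edgeR, adjusted p = 0.447 and 0.438), and *Kctd12*, another, had 0.066 ± 0.032 in Acute (adjusted p = 0.519) and -0.019 ± 0.032 in Chronic mice. Between Chronic and Acute mice *Kctd12* was the 1 gene of the 5 lists with an unadjusted p under 0.05 (-0.084 ± 0.033, edgeR, adjusted p = 0.998), against 4.44% of all genes (2.5% lower and 1.95% higher). The chloride transporters, which set the force on the current these receptors pass, had log2 fold changes of 0.017 ± 0.029 (*Slc12a5*) and -0.048 ± 0.099 (*Slc12a2*) in Acute mice and of 0.016 ± 0.029 and -0.0018 ± 0.099 in Chronic mice.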

How the data were processed

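The authors quantified paired-end reads of each amygdala with Salmon 0.14.1 (FastQC 0.11.8, per the submitters' processing notes) against GRCm38, summarized them by gene and deposited unnormalized counts as 1 table per batch, not yet adjusted with ComBat-seq. Strandedness of the counting was not given in the sources used here. Tables of 50051 and 51073 genes were joined on 49477 shared identifiers. No mouse was left out, and counts of the 55 pairs of mice of 1 group and batch differed by more than sampling noise.

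The filter kept genes whose mean count over all mice reached 10. Groups were compared with edgeR 4.0.16 (TMM, quasi-likelihood test, R 4.3.3) over all 28 mice with batch as a covariate, 2-sided, and p-values were adjusted by Benjamini-Hochberg over the 16266 genes tested, with 0.05 as threshold. Marker scores and correlations used log2 CPM (prior count 2). Named genes were the 7 subunits, the 2 genes with the smallest p of each list in each comparison with Water (any called gene too), and the 3 genes most like each subunit. Markers were named beside their lists after values were known. Results of some genes under this rule are not reported here. The subunits and gene lists were chosen with earlier results of these data known.

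Alternatives were DESeq2 1.42.0, limma 3.58.1 (voom with quality weights), ComBat-seq (sva 3.50.0) then DESeq2, other normalizations and filters, each batch alone, a replicate block, offsets for GC content and length, and leaving out each mouse. Intervals cover 95%, and the counting error covers counting only.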

Additional observations from a re-analysis of the deposited data

How the results depend on the processing

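Under 14 other settings and with each of the 28 mice left out, no subunit was called in any comparison (range 0 to 0). How many of all genes these settings called is not given here. The number at an unadjusted p under 0.05 was 1 in each comparison. In the first batch alone it became 0 for both comparisons with Water, where 7.21% (Acute) and 3.52% (Chronic) of all genes were below that p. In the second batch alone it became 3 for Chronic against Water. With GC and length offsets it became 0 for Chronic against Water, and with the replicate block and these offsets 0 for both comparisons with Water. With the striatal score it became 0 for Chronic against Acute. For the fits with offsets, block or striatal score, or without 1 mouse, the shares of all genes are not given here. The 3 of the second batch were *Gabra4* (-0.12, p = 0.0291) and *Gabrb2* (-0.24, p = 0.0090), both lower, and *Gabra5* (0.13, p = 0.0339), higher, in an edgeR fit where 13.4% of all genes were below that p (6.87% lower, 6.5% higher). For Chronic against Acute in the first batch alone it stayed 1 but the gene was *Gabrb2* (0.23, edgeR p = 0.00393), not *Gabra4* (-0.10, p = 0.251). There 4.58% of all genes were below an unadjusted p of 0.05 (2.39% lower, 2.19% higher). Leaving out 1 mouse gave 0 to 1 for Acute against Water (0 without Water mouse 4 or 6), 1 to 1 for Chronic against Water and 0 to 1 for Chronic against Acute (0 without Chronic mouse 38). The number of subunit pairs past the threshold, 4, became 0 in either batch alone, where fewer mice enter. The highest level over the lowest, 5.94, became 8.61 without a division by length.

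Some log2 fold changes turned sign, none of them called. For Acute against Water, *Gabra3* was -0.034 and *Gabrd* 0.077 in the first batch alone, *Gabra4* was 0.00086 without a filter, 0.0014 with the replicate block, 0.017 with the offsets, 0.021 with both and 0.0033 with limma-voom, *Gabra5* was 0.0024 without a filter, 0.068 in the second batch alone, 0.031 with limma-voom, 0.013 with ComBat-seq and 0.023 with the striatal score, and *Gabrd* was 0.0032 with the block. For Chronic against Water, *Gabra3* was -0.037, *Gabra5* -0.029 and *Gabrb2* 0.12 in the first batch alone, *Gabrb1* was 0.017 with the offsets and 0.016 with the block too, and *Gabrd* was 0.029 with the striatal score. For Chronic against Acute, *Gabra2* was 0.0020 with RLE and with DESeq2, 0.00085 with the upper quartile, 0.00034 with a mean of at least 100 counts, 0.052 in the second batch alone, 0.014 with the offsets, 0.012 with the block too, 0.00068 with only the groups compared and 0.0031 with limma-voom, *Gabra3* was -0.0031 in the first batch alone and -0.035 with the striatal score, *Gabrb2* was -0.048 in the second batch alone, and *Gabrb1* and *Gabrd* were -0.0015 and 0.089 with the striatal score. Leaving out 1 mouse also turned signs for Acute against Water, where *Gabra3* ranged from -0.012 to 0.041, *Gabra4* from -0.034 to 0.020, *Gabra5* from -0.030 to 0.038 and *Gabrd* from -0.079 to 0.056, and for Chronic against Acute, where *Gabra2* ranged from -0.018 to 0.020 and *Gabrb1* from -0.010 to 0.040. Causes were not tested.

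Mouse numbers recur across groups of the second batch. Deviations of the 16 pairs of same-numbered mice correlated from -0.346 to 0.338, with 4 over 0.1, so the numbers were not taken as pairs, and the replicate block left *Gabra4* at -0.12 in Chronic and *Gabrb2* at -0.15 in Acute mice. Depth limits single values by 5.38% at most, and the spread between mice limits the rest.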
